A study of Rattus norvegicus with 4 samples.

Results

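Lens fiber beaded filament and membrane genes were followed on 4 arrays of rat lens capsules. The group held 6 genes, *Bfsp1*, *Bfsp2*, *Lim2*, *Mip*, *Gja3* and *Grifin*, out of 14217 genes with a single symbol on the array. The genes were chosen by name, with earlier results of these data known. All 6 had a probe set, the set of array probes for a given transcript, that carried its symbol alone (7 probe sets of 31042, with 2 for *Gja3*). RNA came from lens capsules with the lens epithelial cells (LECs) that stay behind after extracapsular lens extraction (ECLE), the surgery that empties the lens through its opened capsule. Female albino SD rats were operated at 7 weeks of age. Capsules were taken at the end of the surgery (day 0, 1 array, age 7 weeks), 7 days later (1 W, 2 arrays labeled as separate biological replicates, age 8 weeks) and 14 days later (2 W, 1 array, age 9 weeks). All groups had undergone ECLE, and capsules with an intact lens were not analysed here. In the study's methods each group has more array samples than were analysed here at day 0, 1 W or 2 W. Whether an array holds RNA of several eyes or animals is not stated in the sources used here.

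Lens fibers form when epithelial cells at the lens equator stop dividing, elongate and fill with crystallins. Their cytoskeleton holds a filament found in lens fibers alone, the beaded filament, which is assembled from filensin (*Bfsp1*) and phakinin (*Bfsp2*) together with alpha crystallin. Their membrane is dominated by the major intrinsic protein (*Mip*), an aquaporin that also takes part in adhesion between fibers, and holds the lens intrinsic membrane protein *Lim2* and the connexin *Gja3*, a channel of fiber gap junctions. *Grifin* encodes a soluble galectin-related protein found at the interface between lens fibers. In posterior capsule opacification (PCO), LECs left on the capsule can turn into myofibroblasts or can form new lens fibers.

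Every intensity below is the linear value deposited for a probe set. Array means decreased over time (244, 218, 210.0 and 165.0 for day 0, replicates 1 and 2 at 1 W, and 2 W), and every array was therefore scaled by its own mean before ratios to day 0 were taken on the log2 scale. Where no replicate is named, the 1 W ratio averages the log2 values of both arrays. All 7 probe sets of the 6 genes passed the filter on low values (the 40th percentile of mean log2 level, 18625 probe sets). All of these entered a single limma fit with day 0, 1 W and 2 W as groups. Its p-values were adjusted by the Benjamini-Hochberg method over all of them, and the threshold was 0.05. The only spread in the model is that between the 2 arrays at 1 W, and the arrays at day 0 and 2 W were assumed to vary like them. Over the tested probe sets the log2 ratios had a median of -0.08 for 1 W and of -0.26 for 2 W. Ratios of single genes are read against these shifts. The arrays also differed in the 3' to 5' ratio of their beta-actin control probe sets, which reflects RNA integrity (2.32, 1.89, 1.90 and 1.61 in the same order). The same ratio of the GAPDH control probe sets differed less (1.16, 1.12, 1.18 and 1.10).

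At 2 W, the beaded filament and membrane genes were at their highest level of the 4 arrays. This held for 6 of the 6 genes after scaling, against 19.6% of the 10455 genes with a probe set above the filter, and not for *Grifin* in the values as deposited. By the fold rule of the study, 5 of the 6 were over 2.0-fold at 2 W relative to day 0, against 6.6% of all genes. The study had already listed *Bfsp1* by this rule on these arrays, so such shares describe the 6 genes and are no test. *Mip* was 13.2-fold, *Bfsp1* 9.35-fold, *Bfsp2* 3.61-fold, *Lim2* 2.94-fold, *Gja3* 2.20-fold and *Grifin* 1.45-fold higher at 2 W than at day 0. All 6 were above day 0 at 2 W, as were 37.5% of all genes, and 0 were under 0.5-fold, against 12.3%. Their log2 ratios had a median of 0.31 at 1 W and of 1.71 at 2 W. Together they made up 0.258% of the summed array intensity at day 0, 0.357% (replicate 1) and 0.266% (replicate 2) at 1 W, and 0.75% at 2 W. Over all probe sets, limma called none of the 6 at 2 W, where 0.0483% of probe sets were called higher and 0% lower. Their adjusted p-values ran from 0.0553 for *Bfsp2* to 0.183 for *Grifin*. With unadjusted limma p-values under 0.05, 5 of the 6 were higher and 0 lower at 2 W, against 9.01% and 21.9% of all probe sets. At 1 W, limma again called 0 of the 6. With unadjusted p-values 2 were higher there (*Bfsp2* and *Lim2*, 8.21% of all probe sets) and 1 lower (*Bfsp1*, 9.66%). With arrays scaled by their median, 5 of the 6 passed at 2 W, where 8.76% of all probe sets did, and *Bfsp1* passed at 1 W, where 2.18% did.

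**Figure D1:**
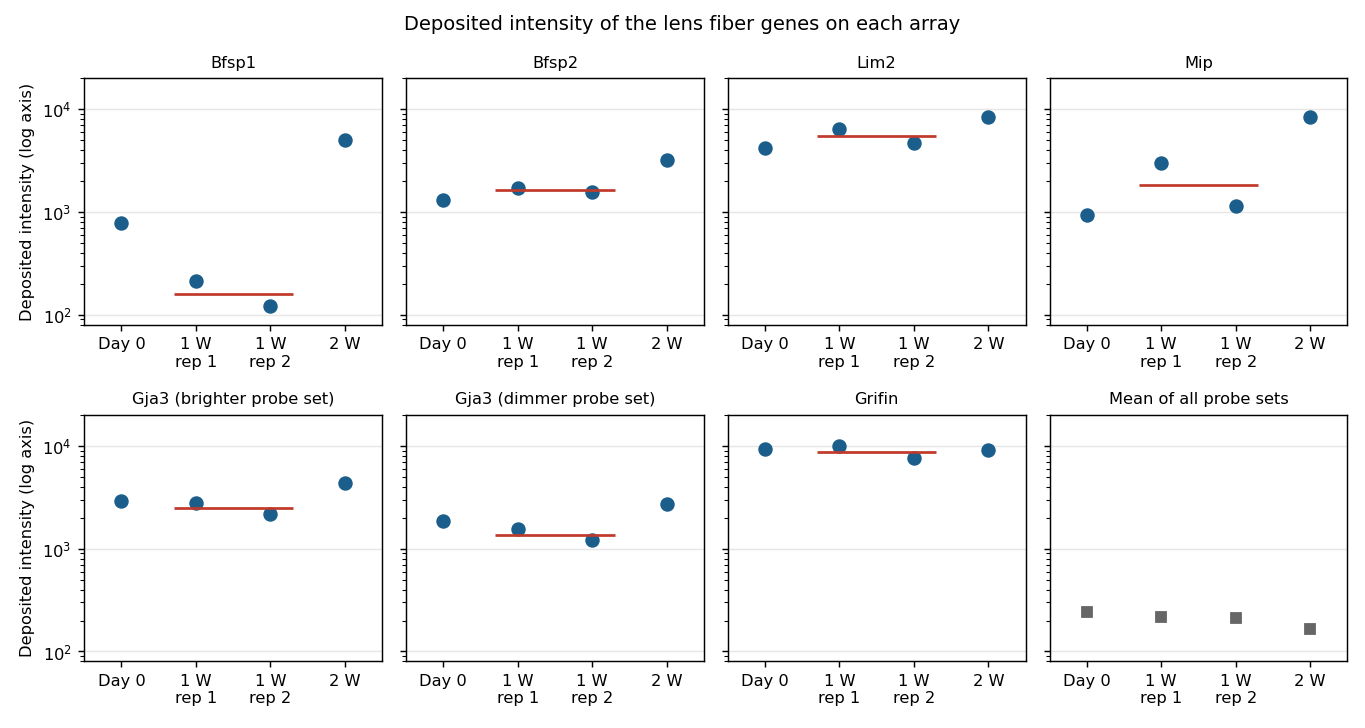
Deposited intensity (vertical, log axis) of each probe set on the 4 arrays, with circles for single arrays, a line for the geometric mean of the 2 arrays at 1 W, and squares in the last panel for the mean of all probe sets. *Bfsp1* dips to 213 and 121 at 1 W and stands at 4987 at 2 W, *Mip* reaches 8357 at 2 W, and *Grifin* lies between 7612 and 10059.9 on all arrays.

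*Bfsp1*, which encodes the filensin chain of the beaded filament, was low at 1 W and high at 2 W. Its intensity was 790.2 at day 0, 213 (replicate 1) and 121 (replicate 2) at 1 W, and 4987 at 2 W. Both 1 W arrays lay below day 0 and the 2 W array lay above it. Relative to day 0, the ratio was 0.302 and 0.178 on replicates 1 and 2 at 1 W (log2 mean -2.11 with a standard error of 0.35, adjusted p = 0.142 from limma). It was 9.35 at 2 W (log2 ratio 3.22, 95% interval 2.10 to 4.35, adjusted p = 0.0577). *Bfsp1* was the only one of the 6 genes under 0.5-fold at 1 W, a rule that 3.71% of all genes met, and 2.17% met it on both arrays. At 2 W it was 30.9-fold higher than on replicate 1 and 52.6-fold higher than on replicate 2. This log2 ratio of 5.33 ranked 3 among the 18625 tested probe sets, with an adjusted p of 0.139 from limma, which called 0 probe sets in this comparison (unadjusted, 5.5% had a p under 0.05 and were higher, and 16.4% were lower). The pattern of under 0.5-fold on both 1 W arrays and over 2.0-fold at 2 W was met by 4 of the 10455 genes (0.0383%), the other three being *Crygc*, *Fabp5* and *Fam89a*. The count depended on scaling, and 7 genes met the pattern with median or 75th percentile scaling, *Crygb* and *Crygd* among them. *Bfsp1*, *Crygc* and *Fam89a* met it under each of the scalings compared. The study listed *Bfsp1*, *Crygb*, *Crygc* and *Crygd*, on these arrays, by a rule that did not ask for both 1 W arrays. Their direction is therefore not independent evidence.

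*Bfsp2*, the phakinin chain that pairs with filensin, did not have the low values of *Bfsp1* at 1 W. Its intensity was 1312 at day 0, 1699 (replicate 1) and 1579 (replicate 2) at 1 W, and 3201 at 2 W. The 2 arrays at 1 W lay close together and above day 0, and the 2 W array lay above both. The log2 ratio was 0.51 at 1 W (0.54 and 0.49 on the replicates, standard error 0.12, adjusted p = 0.183 from limma) and 1.85 at 2 W (95% interval 1.48 to 2.23, adjusted p = 0.0553). The ratio of *Bfsp1* to *Bfsp2* within an array is the same under any scaling by a single factor per array, and quantile normalization moved it by less than 0.1 log2 units (1.29 at 2 W). Relative to its value at day 0, this ratio was lower by a log2 difference of -2.27 on replicate 1 and -2.98 on replicate 2 at 1 W, and higher by 1.37 at 2 W. The 2 chains of the filament therefore differed in their ratio to day 0 by more at 1 W than the 2 replicates differed from each other. The same was seen against the remaining genes. At 1 W, *Bfsp1* had a lower ratio than all 5 others, by -3.56 to -1.82 on replicate 1 and by -2.99 to -2.28 on replicate 2. At 2 W it had a higher ratio than 4 of them and lay 0.49 below *Mip*.

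**Figure D2:**
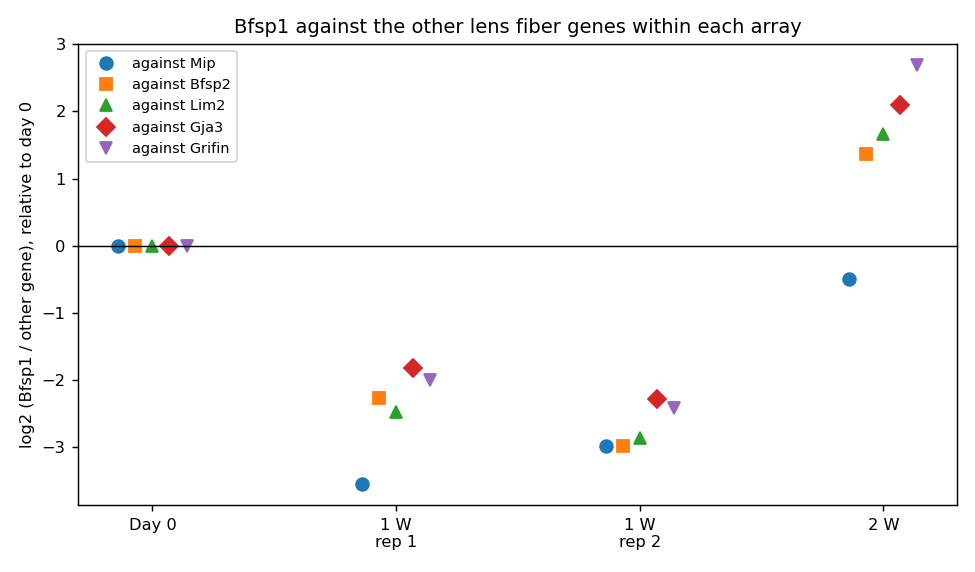
Log2 ratio of *Bfsp1* to each of the 5 other genes within an array (vertical), relative to the same ratio at day 0, on each of the 4 arrays. All 5 points lie between -3.56 and -1.82 on replicate 1 and between -2.99 and -2.28 on replicate 2 at 1 W, and at 2 W they lie from -0.49 against *Mip* to 2.69 against *Grifin*.

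The 250 bases upstream of the RefSeq start sites are shown for the filament pair, whose 1 W values parted, and for *Mip*, which had the highest 2 W ratio. Sequences come from RefSeq (GRCr8) and run 5' to 3' in the direction of the gene, for *Bfsp1* from chr3:151682838-151683087 (minus strand), for *Bfsp2* from chr8:112942247-112942496 (minus strand) and for *Mip* from chr7:1231655-1231904 (plus strand). Capitals mark exact matches to the motifs searched on both strands.
Bfsp1: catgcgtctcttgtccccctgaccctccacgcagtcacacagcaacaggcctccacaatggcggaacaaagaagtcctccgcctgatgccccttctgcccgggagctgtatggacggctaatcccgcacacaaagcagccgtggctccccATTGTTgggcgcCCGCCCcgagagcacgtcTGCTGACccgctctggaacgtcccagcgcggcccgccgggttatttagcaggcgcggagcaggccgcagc
Bfsp2: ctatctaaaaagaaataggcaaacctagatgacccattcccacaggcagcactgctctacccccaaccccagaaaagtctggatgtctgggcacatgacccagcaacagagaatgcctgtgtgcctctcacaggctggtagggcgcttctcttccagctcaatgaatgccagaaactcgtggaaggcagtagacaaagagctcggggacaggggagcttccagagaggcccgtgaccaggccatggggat
Mip: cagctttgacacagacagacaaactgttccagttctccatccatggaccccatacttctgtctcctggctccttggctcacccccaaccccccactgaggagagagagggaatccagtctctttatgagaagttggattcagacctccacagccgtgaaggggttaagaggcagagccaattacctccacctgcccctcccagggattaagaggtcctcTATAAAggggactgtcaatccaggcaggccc
The motifs were a Maf half-site (TGCTGAC), a Sox motif (ATTGTT), a heat shock element (GAANNTTC), a TATA box (TATAAA), an AP-1 motif (TGANTCA) and a GC box (GGGCGG). The *Bfsp1* window held the Maf half-site, with its first base 70 bases before the start, the Sox motif at 100 and a GC box on the other strand at 88. None of these 3 matches overlapped another. The *Mip* window held a TATA box at 31 bases before the start, and the *Bfsp2* window held none of the 6 motifs. Over 27457 promoter windows of the same length, 3.55% held the Maf half-site, 10.3% the Sox motif, 13.1% the TATA box and 32.4% the GC box. The heat shock element (7.02% of windows) and the AP-1 motif (6.36%) were in none of the windows of the 6 genes, and *Lim2* and *Gja3* held no match. *Grifin* held 1 GC box. These matches are letters in the sequence and were not tested as binding sites.

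Of the membrane genes, *Mip* had the highest ratio at 2 W. The intensity of *Mip* was 941 at day 0, 2976 (replicate 1) and 1139 (replicate 2) at 1 W, and 8357 at 2 W. All 3 arrays after ECLE lay above day 0, and the 2 replicates at 1 W were far apart. The ratio to day 0 was 3.55 on replicate 1 and 1.41 on replicate 2 (log2 mean 1.16 with a standard error of 0.58, adjusted p = 0.368 from limma), so *Mip* was over 2.0-fold at 1 W by the mean and on replicate 1, but not on replicate 2. By the mean it was the only one of the 6 over 2.0-fold at 1 W, against 4.95% of all genes, and 0 of the 6 were over 2.0-fold on both 1 W arrays, against 3.25%. At 2 W the log2 ratio was 3.72 (95% interval 1.88 to 5.56, adjusted p = 0.0688), the rank of 40 among the 18625 tested probe sets. *Mip* was 3.70-fold higher at 2 W than on replicate 1 and 9.34-fold higher than on replicate 2. The gap between the 2 replicates, 1.33 log2 units, was the largest among the 6 genes and gave *Mip* the widest interval. Over all tested probe sets the median gap was 0.21.

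*Lim2*, an integral membrane protein of fiber junctions, was higher than day 0 on each array after ECLE. Its intensity was 4245 at day 0, 6389.7 (replicate 1) and 4700.0 (replicate 2) at 1 W, and 8431 at 2 W. The values at 1 W lay between those of day 0 and 2 W. The log2 ratio was 0.56 at 1 W (0.76 and 0.37 on the replicates, adjusted p = 0.272 from limma) and 1.56 at 2 W (95% interval 0.93 to 2.18, adjusted p = 0.0602). At 2 W, *Lim2* was 1.74-fold higher than on replicate 1 at 1 W and 2.28-fold higher than on replicate 2.

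*Gja3*, the fiber connexin, was near its day 0 level at 1 W and higher at 2 W, and its probe sets were alike. The brighter one had an intensity of 2938 at day 0, 2794 (replicate 1) and 2183 (replicate 2) at 1 W, and 4355 at 2 W. The dimmer one had 1852, 1540.4, 1228 and 2749 in the same order. On both probe sets the 2 W array was the highest and replicate 2 at 1 W the lowest. The log2 ratios at 2 W were 1.13 on the brighter probe set (95% interval 0.59 to 1.68, adjusted p = 0.0669 from limma) and 1.14 on the dimmer one (adjusted p = 0.066). At 1 W they were -0.06 (0.09 and -0.21 on the replicates, 95% interval -0.53 to 0.41) and -0.24 (-0.10 and -0.37). The sign of the brighter probe set at 1 W turned with scaling by the median (0.063) and by the 75th percentile (0.019).

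*Grifin* had the smallest difference from day 0 at 2 W among the 6 genes. Its intensity was 9315 at day 0, 10059.9 (replicate 1) and 7612 (replicate 2) at 1 W, and 9096 at 2 W. The intensities of the 4 arrays overlapped in time, and the 2 W value lay between the 2 values at 1 W. After scaling, the log2 ratio was 0.10 at 1 W (0.28 and -0.07 on the replicates, adjusted p = 0.783 from limma) and 0.53 at 2 W (95% interval -0.05 to 1.11, adjusted p = 0.183). With the values as deposited, the 2 W log2 ratio was -0.034 and the 1 W log2 ratio -0.090, and with quantile normalization the 1 W log2 ratio was -0.029. *Grifin* was the only one of the 6 among the 100 brightest probe sets of the arrays. For those 100 the median was 0.33 at 1 W and 0.57 for 2 W, with 7 over 2.0-fold at 2 W. The part of probe brightness in the small difference was not tested.

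**Figure D3:**
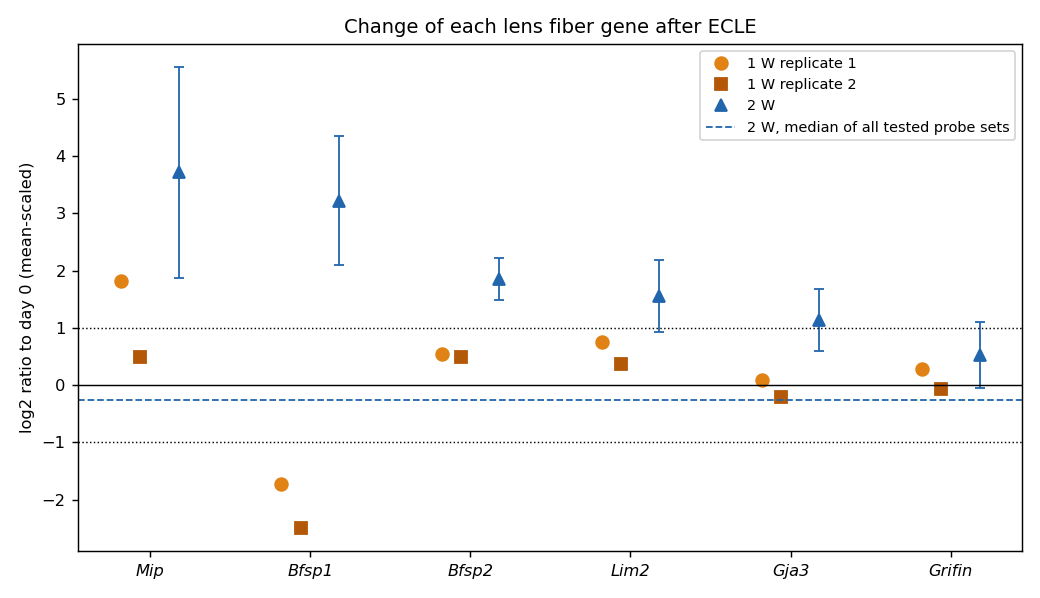
Log2 ratio to day 0 (vertical) of each gene on replicate 1 (circles) and replicate 2 (squares) at 1 W and at 2 W (triangles, with the 95% interval of limma), with dotted lines at 2.0-fold and 0.5-fold and a dashed line at the 2 W median of all tested probe sets (-0.26). All 6 triangles lie above 0, from 0.53 for *Grifin* to 3.72 for *Mip*, and only *Bfsp1* has both 1 W points below the lower dotted line.

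In the second week, 4 of the 6 genes were over 2.0-fold higher at 2 W than at 1 W, against 2.49% of all genes, and 0 were under 0.5-fold, against 5.13%. *Bfsp1*, *Bfsp2*, *Mip* and *Gja3* met this rule over each 1 W array taken alone, which 1.56% of genes did, and *Lim2* missed it by the mean at 1.99-fold. The log2 ratios of 2 W over 1 W were 5.33 for *Bfsp1*, 2.56 for *Mip*, 1.34 for *Bfsp2*, 1.19 for *Gja3*, 1.00 for *Lim2* and 0.43 for *Grifin*. None passed limma, with adjusted p-values from 0.139 to 0.268. At an unadjusted limma p under 0.05, 5 of the 6 were higher and 0 lower, against 5.5% and 16.4% of all probe sets. In the order of the 2 W ratios to day 0, neighbouring genes were compared with the error that the 2 arrays at 1 W give for their difference. *Mip* and *Bfsp1* (difference 0.49, error 0.57) and *Bfsp2* and *Lim2* (difference 0.30, error 0.34) did not differ beyond it. The differences were larger than this error for *Bfsp1* and *Bfsp2* (1.37, error 0.71), *Lim2* and *Gja3* (0.42, error 0.087) and *Gja3* and *Grifin* (0.60, error 0.046). This is a description and no test, since the error comes from a single pair of arrays of another group and the order from the same 2 W values.

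All 6 genes were higher on replicate 1 than on replicate 2 at 1 W, by a median of 0.37 log2 units. The share of all genes higher on replicate 1 was not counted. Over all genes above the filter, the median log2 ratio to day 0 was -0.02 on replicate 1 and 0.01 on replicate 2. Markers of other cell types also differed between these arrays. The summed scaled level of 12 photoreceptor markers was 63.3 at day 0, 6.39 on replicate 1 and 27.0 on replicate 2 at 1 W, and 8.50 at 2 W. For 16 macrophage markers it was 4.25, 37.5, 25.5 and 18.4 in the same order. For 12 markers of fibroblasts and myofibroblasts it was 13.6, 64.9, 39.0 and 57.3. For 8 markers of pigment cells, ciliary body and iris it was 17.4, 68.8, 29.1 and 38.6. Of these 8, 5 were over 2.0-fold at 2 W, all of them pigment genes. The others were *Aqp4* (log2 ratio -2.43), *Slc4a2* (-0.63) and *Optc* (0.31). The 14 markers of other retinal cells summed to 14.4, 12.7, 23.0 and 12.1, and 6 of vessels and blood to 3.45, 2.40, 2.20 and 2.35. The vessel and blood genes did not move together. At 2 W, *Hbb*, a hemoglobin gene and the brightest of them, had a log2 ratio of -1.41, *Kdr* -0.59 and *Alas2* -0.05. *Pecam1*, *Vwf* and *Tek* had 1.79, 1.28 and 0.44. No marker was at 0 on any array. Of the 10 photoreceptor markers above the filter, 10 were under 0.5-fold at 2 W, among them *Sag*, the rod arrestin (log2 ratio -3.15), *Pde6g*, a subunit of the rod phosphodiesterase (-2.66), and *Gnat1*, the rod transducin (-2.76). The part of these other cells in the values of the fiber genes was not tested, and in such bulk samples fewer cells of a type and less RNA per cell cannot be told apart.

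Among other genes of the lens fiber, higher 2 W values were frequent but not general. Of 13 crystallins above the filter, 12 were highest at 2 W after scaling and 3 were over 2.0-fold, and the median of their log2 ratios was 0.61. The brightest, *Cryba1*, *Crybb3* and *Crybb2*, had log2 ratios of 0.20, 0.43 and 0.48. In the values as deposited these 3 were lower at 2 W (9087, 10134 and 9906) than at day 0 (11739, 11129.5 and 10529). The median log2 ratio of the 100 brightest probe sets of the arrays was 0.57 at 2 W. The part of scaling and probe brightness in the crystallin values was not tested. Only *Crygb*, *Crygc* and *Crygd* were under 0.5-fold at 1 W, as *Bfsp1* was. The 1 W replicates were far apart for *Crygb* (intensities of 39.8 and 0.76) and for *Crygd* (681 and 40.2). The size of their 1 W ratios therefore rests on very low values on replicate 2. *Crygc*, named like the other two after their values were seen, had intensities of 2938, 342, 156 and 7103 in order of time and replicate. Of 12 partners of the beaded filament and other genes of the fiber cytoskeleton, 10 were highest at 2 W and 5 over 2.0-fold, with a median of 0.91. The 5 include *Des*, which encodes desmin, a filament protein of muscle cells. Its intensities of 23.8, 208.9, 52.5 and 78.3, in order of time and replicate, were highest on replicate 1 at 1 W. *Vim*, the vimentin that forms the other filament of lens fibers, had a log2 ratio of 0.45 at 2 W, and the spectrins *Sptan1* and *Sptbn1* had 0.89 and 1.71. Of 11 regulators and enzymes of fiber differentiation, 8 were highest at 2 W and 5 over 2.0-fold, with a median of 0.78. The brightest of these were the transcription factors *Maf* (0.11) and *Prox1* (0.28) and the RNA-binding protein *Rbm24* (0.56). The 5 over 2.0-fold were named after their values were seen. They were *Hsf4*, the heat shock factor of fiber cells (3.37), *Lenep*, which encodes lens epithelial protein (2.98), *Caprin2* (2.88), *Tdrd7*, a component of RNA granules (2.47), and *Birc7* (1.03). *Hsf4* was dim, with intensities of 23.3, 34.7, 14.6 and 163.4 in order of time and replicate. The array medians were 57.0, 45.2, 46.7 and 31.9, so it lay below the median on all arrays but that of 2 W. None of the genes in these lists passed limma in any of the 3 comparisons.

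Other fiber membrane and junction genes mostly had lower 2 W ratios than *Mip*, *Lim2* and *Gja3*. Of 13 above the filter, 4 were highest at 2 W, 2 were over 2.0-fold and 1 was under 0.5-fold, with a median log2 ratio of -0.22, near the -0.21 of all genes. *Ctnnb1*, which encodes beta-catenin, *Cadm1*, an adhesion molecule, and *Cdh2*, which encodes N-cadherin, had log2 ratios of 0.09, -0.70 and -0.22. Most markers of the lens epithelium, the cell layer from which fibers form, ran the other way. Of 15 above the filter, 0 were over 2.0-fold and 8 under 0.5-fold at 2 W, with a median of -1.03. The shares of all genes were 6.6% and 12.3%. At 2 W, 3 of the 15 were at their highest level, against 19.6% of all genes. These were *Dkk3*, *Sfrp1* (log2 ratio 0.47) and *Mab21l1* (0.38). *Gja1*, the connexin of the epithelium, *Dkk3* and *Cdh1*, which encodes E-cadherin, had log2 ratios of -0.54, 0.40 and -1.89. *Pax6*, a transcription factor of the lens epithelium, was named after its values were seen. Its intensities were 4029, 3316, 3283 and 1382 in order of time and replicate, so its transcript was still measured at 2 W. Which cells of these bulk samples held it was not tested. The summed scaled level of the epithelial markers was 191, 144, 145 and 129 in the same order, while the share of the 6 fiber genes in the array intensity was highest at 2 W.

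**Figure D4:**
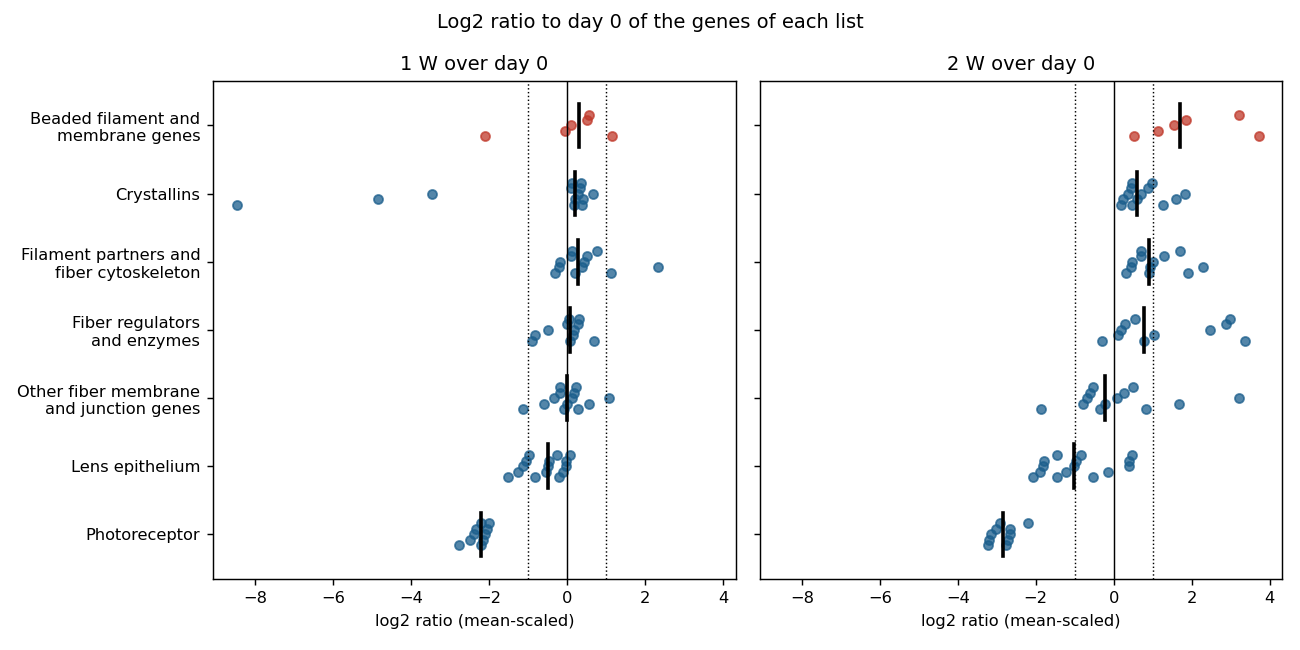
Log2 ratio (horizontal) of 1 W (left) and of 2 W (right) over day 0 for each gene above the filter, by gene list, with a bar at the median of each list and dotted lines at 2.0-fold and 0.5-fold. At 2 W the beaded filament and membrane genes have a median of 1.71, the lens epithelium list -1.03, and at 1 W *Crygb*, *Crygc* and *Crygd* lie far to the left of the other crystallins.

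The genes nearest in pattern were found by the root mean square difference between 3 log2 ratios to day 0 (both 1 W arrays and 2 W), among 10454 other genes. *Bfsp1* and *Mip* had no gene within 0.5 of them. The nearest to *Bfsp1* were *Fam89a* (0.64), *Spetex2l2* (0.67) and the noncoding RNA *Snhg11* (1.07), and the nearest to *Mip* were *Tgm1*, a transglutaminase (0.52), *Col12a1*, a collagen (0.57), and *Serf1* (0.60). *Bfsp2* had 206 genes within 0.5, with *Mecr*, *Tbcb* and *Gchfr* nearest (0.032, 0.073 and 0.085). *Lim2* had 448, led by *Cd24*, *Fam20c* and *Nap1l4* (0.032, 0.061 and 0.098), and *Gja3* had 884, led by *Arhgap12*, *Ipo8* and *Cyp51* (0.026, 0.071 and 0.075). *Grifin* had 3798, led by *Exoc5*, *Spsb2* and *Mief2* (0.026, 0.028 and 0.040). No crystallin was among the 3 nearest genes of any of the 6, but this cut leaves out genes that also lie close. *Crygn*, named after its values were seen, had log2 ratios of 0.66, 0.11 and 1.60 on replicates 1 and 2 and at 2 W. Those of *Lim2* were 0.76, 0.37 and 1.56 in the same order. *Crygc* met the fold pattern of *Bfsp1*.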

How the data were processed

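Biotin-labeled RNA of 4 samples of lens capsules with LECs was hybridized by the authors to a rat genome array. With the Affymetrix Command and Expression Console programs the authors made the deposited values, a linear intensity per probe set (31099 in all). For the summary algorithm and any scaling target, the sources used here give nothing. The methods describe division by control values or by the array average. Since array medians differed by 0.84 log2 units, each array was divided by its mean after 57 control probe sets were left out, and log2 was taken. The 18625 probe sets that reached the 40th percentile entered limma 3.58.1 under R 4.3.3 (3 groups, intensity trend, 1 residual and 3.12 prior degrees of freedom, two-sided). Gene names are those of the platform annotation, and all 6 symbols matched the RefSeq gene table. Where a gene had several probe sets, the brightest on average stood for it, and 10455 genes were above the filter. All probe sets of the 6 genes are given. Of each gene list up to 3 of the brightest genes are named, with any that limma called, and for each of the 6 genes the 3 nearest in pattern. The genes and lists were chosen with earlier results of these data known. Python 3.11.15, numpy 2.4.6, pandas 2.3.3 and matplotlib 3.10.9 were used. Alternatives were other scalings, a floor, other filters, limma without a trend or robust, all probe sets averaged, linear averaging of the 1 W arrays, and omission of each 1 W replicate. Precision is limited by the number of arrays.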

Additional observations from a re-analysis of the deposited data

Results flagged for a closer look

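*Bfsp1* was below day 0 on both arrays at 1 W (log2 ratios of -1.73 and -2.49) and above it at 2 W (3.22), so its ratios at the 2 times had opposite signs on every array. The log2 ratio of 2 W over 1 W was 5.33, with an adjusted p of 0.139 from limma.

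The dimmer probe set of *Gja3* was also below day 0 on both 1 W arrays (-0.10 and -0.37) and above it at 2 W (1.14), a log2 ratio of 2 W over 1 W of 1.37 (adjusted p = 0.139 from limma). This rests on scaling. With arrays scaled by their median, replicate 1 lay above day 0 (0.071), as it did on the brighter probe set in the values scaled by the mean (0.095).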

How the results depend on the processing

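Calls of limma among the 6 genes depended on scaling. With arrays scaled by their median, 1 gene was called at 1 W (*Bfsp1*, lower), 5 at 2 W (all but *Grifin*) and 2 at 2 W over 1 W, where 2.18%, 8.76% and 1.12% of all probe sets were called. With the 75th percentile, 2 were called at 2 W (*Bfsp1* and *Bfsp2*), against 2.14% of all. With the values as deposited, 0 were called at 1 W, 4 at 2 W and 4 at 2 W over 1 W, against 1.34%, 42.8% and 23.7% of all. Quantile normalization, the floor, no filter, the 60th percentile filter, and limma without a trend or robust called none of the 6 in any comparison. The median log2 ratio of the 6 genes at 2 W, 1.71, was 1.98 with median, 2.02 with 75th percentile and 1.44 with quantile scaling and 1.14 as deposited. That of 2 W over 1 W, 1.27, was 1.51 with 75th percentile and 1.07 with quantile scaling and 0.89 as deposited. That of 1 W, 0.31, was 0.12 as deposited. The count over 2.0-fold at 2 W was 3 as deposited in place of 5, that at 2 W over 1 W was 2 in place of 4, and that at 1 W was 0 in place of 1. With quantile normalization the counts were 4 at 2 W and 3 at 2 W over 1 W. *Gja3* dropped out of both, with log2 ratios of 0.86 and 0.97. With median or 75th percentile scaling the count at 2 W over 1 W was 5, with *Lim2* added. The share of all genes over 2.0-fold was not counted under these alternatives. The median log2 ratios of all tested probe sets also moved as deposited. They were -0.83 in place of -0.26 at 2 W, -0.58 in place of -0.20 at 2 W over 1 W, and -0.27 in place of -0.08 at 1 W. Without 1 replicate at 1 W, the count over 2.0-fold at 1 W ran from 0 (without replicate 1) to 1. The 1 W log2 ratio of *Gja3* turned to 0.063 and 0.019 with median and 75th percentile scaling, and ran from -0.21 without replicate 1 to 0.095 without replicate 2. That of *Grifin* turned to -0.029 with quantile scaling and -0.090 as deposited, and ran from -0.073 without replicate 1 to 0.28 without replicate 2. Its 2 W log2 ratio turned to -0.034 as deposited. The causes were not tested. *Bfsp1*, *Bfsp2*, *Lim2* and *Mip* kept their direction at 1 W and 2 W under the 5 alternatives of scaling and floor. No paired analysis was possible because only the 1 W group carries replicate numbers. With a 1 W replicate left out, no spread remains within any group, so those values were not tested. Signal over background is unknown without detection calls.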

Other observations

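A second aquaporin of lens fibers, *Aqp5*, was dim and lay below the filter of the test. Its intensity was 5.51 at day 0, 14.1 (replicate 1) and 15.6 (replicate 2) at 1 W, and 73.0 at 2 W, a log2 ratio of 1.62 for 1 W and of 4.30 for 2 W, with no test. *Ctnna2*, an alpha-catenin, and *Nrcam*, a cell adhesion molecule, were the 2 junction genes over 2.0-fold at 2 W. Their log2 ratios were 3.20 and 1.68 (adjusted p = 0.0577 and 0.0770 from limma). *Efna5*, an ephrin of the lens, had a log2 ratio of -1.87 at 2 W. These genes were chosen after their values were seen. Among all lists, limma called 3 genes, all markers of fibroblasts and myofibroblasts. *Col1a1*, a collagen, *Fn1*, which encodes fibronectin, and *Tagln*, a smooth muscle protein, rose at 1 W by log2 ratios of 4.34, 4.603 and 5.94 (adjusted p = 0.0300, 0.0297 and 0.0297 from limma). At 2 W they were above day 0 by 5.23, 3.96 and 4.75 (adjusted p = 0.0405, 0.0493 and 0.049995). The 2 W calls of all 3 were lost with quantile normalization, and all calls at both times were lost in limma without a trend (adjusted p = 0.295 at 1 W and 0.149 at 2 W). *Fn1* and *Tagln* also lost the 2 W call with the floor and the 60th percentile filter, and *Tagln* with no filter.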
